A study of Mus musculus with 45 samples.

Results

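CIC peaks were examined at the 10 genes that encode the MAP kinase phosphatases of the mouse, Dusp1, Dusp2, Dusp4, Dusp5, Dusp6, Dusp7, Dusp8, Dusp9, Dusp10 and Dusp16. A peak was assigned to a gene when its summit, the base of highest signal, fell inside the gene or no more than 20 kb from either end. Of the 6970 peaks in the 3 deposited CIC lists 17 met this rule, that is 8 of 4432 WT peaks, 6 of 1690 from 154Q and 3 of 848 from 154Q[V591A;S602D]. The rule used neither the strength nor the genotype of a peak.

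CIC (Capicua) binding was measured by CUT&RUN, in which an antibody guides a nuclease to release the DNA under its target, in the cerebellum of C57BL/6 mice at 10 weeks of age. The labels describe 15 mice, each profiled with antibodies to CIC and H3K27ac and with IgG, and the deposited lists hold the CIC libraries alone. The 4 genotypes were WT (n = 4), 154Q (Atxn1_154Q/2Q, n = 4), 154Q[V591A;S602D] (Atxn1_154Q[V591A;S602D]/2Q, n = 3) and CIC KO (Engrailed1-Cre;Cicfl/fl, n = 4). In 154Q mice 1 Atxn1 allele carries an expanded glutamine tract and the other is of normal length, and 154Q[V591A;S602D] mice carry in addition, on the expanded allele, substitutions that are meant to abolish its contact with CIC. In CIC KO mice Cic is deleted by a Cre recombinase under the Engrailed1 promoter. The CIC KO libraries were the control against which each list was called. The WT list was taken as WT from its own name, since the sample labels attach it to the CIC KO libraries and name no list for WT, and every WT value below rests on this. The comparison asks at which phosphatase genes CIC is found and whether that differs when the expanded ATXN1 can or cannot bind CIC.

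MAP kinase phosphatases remove phosphate from both the threonine and the tyrosine of the activation loop of MAP kinases and so end their signal. Several are transcribed in response to the kinases that they inactivate, which makes them feedback inhibitors. CIC is a repressor with an HMG box that reads a short octamer, and it is itself inactivated downstream of ERK, so many feedback inhibitors of the pathway are known CIC targets. In neurons ERK signalling couples activity to transcription.

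Libraries of a genotype were merged before peaks were called, so each genotype is 1 list, no difference between genotypes has a replicate check and no p-value is given. The strength of a peak is given as its −log10 q and as its rank within its list, where rank 1 is the strongest. WT and 154Q[V591A;S602D] peaks also have a fold enrichment over CIC KO, from which the number of CIC fragments over the summit (the pileup) and the control background were solved. The depth of single libraries is unknown from the lists. The genome-wide background was 6.59 fragments in WT and 5.28 in 154Q[V591A;S602D], a ratio of 1.25, and the lowest pileup of any peak was 19 and 18 fragments. The 154Q list gives summits and −log10 q only, so its depth cannot be recovered. A −log10 q grows with depth, and lists are therefore compared by rank. Peak lists do not measure expression, so the tissue label was not checked against marker genes.

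The sequences under the main summits are shown first, on GRCm38 and in the direction of transcription. The CIC octamer was searched on both strands as TGAATGAA, TGAATGGA, TCAATGAA or TCAATGGA. The stretch at Dusp4 (chr8:34807014-34807214, plus strand) is shown because all 3 lists have their strongest summit in it. That at Dusp6 (chr10:99263070-99263230, plus strand) holds the WT and 154Q summits and ends at the last base before the start site, and that at Dusp7 (chr9:106368148-106368248, plus strand) surrounds the WT summit. Capitals mark the octamer, which at Dusp4 and Dusp6 reads as its reverse complement.
Dusp4: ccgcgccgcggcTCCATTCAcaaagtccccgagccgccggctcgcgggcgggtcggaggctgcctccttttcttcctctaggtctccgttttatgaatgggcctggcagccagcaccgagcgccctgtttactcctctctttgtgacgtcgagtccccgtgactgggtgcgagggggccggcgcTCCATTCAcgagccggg
Dusp6: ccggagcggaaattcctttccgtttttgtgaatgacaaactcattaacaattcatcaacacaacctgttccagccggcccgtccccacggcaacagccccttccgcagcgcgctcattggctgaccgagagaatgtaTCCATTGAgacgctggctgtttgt
Dusp7: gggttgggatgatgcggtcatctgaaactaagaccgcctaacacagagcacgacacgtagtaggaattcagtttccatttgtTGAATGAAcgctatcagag

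Further stretches without an octamer are shown with other motifs. The stretch at Dusp5 (chr19:53529001-53529101, plus strand) is shown because all 3 lists have a summit in it, with capitals for a pair of adjoining CArG boxes, the element bound by serum response factor. Those at Dusp1 (chr17:26508567-26508667, minus strand) and Dusp10 (chr1:184034253-184034353, plus strand) surround the WT promoter summits. In these, capitals mark the GC box GGGCGG on either strand and, at Dusp1, also the cyclic AMP response element TGACGTCA, whose right-hand end adjoins a reversed GC box.
Dusp5: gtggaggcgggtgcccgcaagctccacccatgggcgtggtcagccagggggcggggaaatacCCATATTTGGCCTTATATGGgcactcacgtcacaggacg
Dusp1: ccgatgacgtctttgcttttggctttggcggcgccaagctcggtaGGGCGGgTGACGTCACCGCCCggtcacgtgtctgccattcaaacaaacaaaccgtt
Dusp10: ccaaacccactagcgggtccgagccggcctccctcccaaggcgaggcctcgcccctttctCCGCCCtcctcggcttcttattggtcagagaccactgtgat

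Of the 10 genes 6 had a WT peak, 6 a 154Q peak and 2 a 154Q[V591A;S602D] peak. Among all 21938 protein-coding genes 25.3% had a WT peak, 11.9% a 154Q peak and 6.92% a 154Q[V591A;S602D] peak. A peak within 1 kb of a start site was present at 6, 4 and 2 of the 10 genes, against 11.7%, 4.88% and 2.81% of all genes. Dusp4 and Dusp5 had a peak in all 3 lists, as did 4.61% of genes. Dusp1, Dusp6 and Dusp7 had one in WT and 154Q but not in 154Q[V591A;S602D], a pattern of 5.58% of genes. Dusp10 had one in WT only, as did 13.5% of genes, and Dusp8 in 154Q only, as did 1.54%. No list had a peak at Dusp2, Dusp9 or Dusp16, nor at 72.4% of all genes.

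The lists differ in length, and this bears on these counts. When each list was cut to its 848 strongest peaks, the number of phosphatase genes with a peak was 2 in WT (Dusp4 and Dusp5), 3 in 154Q (Dusp4, Dusp5 and Dusp6) and 2 in 154Q[V591A;S602D], and the share of all genes was 7.41%, 6.67% and 6.92%. The 17 peaks formed 12 sites when peaks that overlapped by at least 1 bp were joined. Of these, 2 sites were in all 3 lists, 1 was in WT and 154Q, and 9 were in 1 list. Among the 5292 sites of all peaks, 7.94% were in 3 lists, 14.9% in 2 and 77.2% in 1, and the 154Q entries are mostly points of 1 bp, which overlap less readily than intervals. Within 1 kb of a start site lay 14 of the 17 summits, against 57.2% of the 6970 peaks. The 6970 were not limited to peaks within 20 kb of a gene, and a site found in several lists counts once per list.

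**Figure D1:**
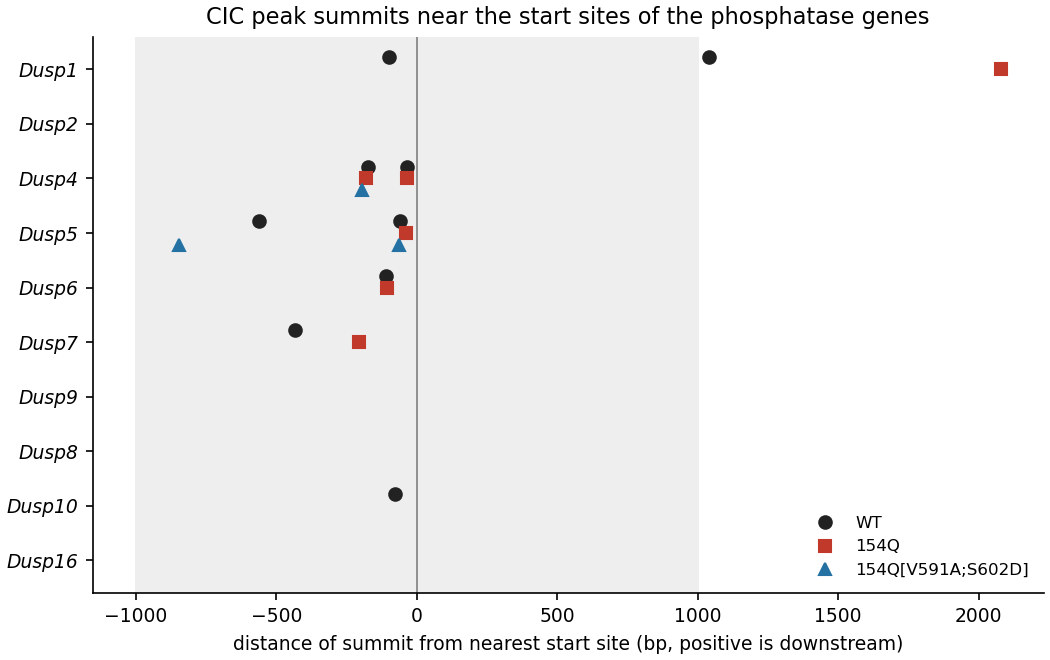
Position of each CIC peak summit (x axis, bp from the nearest annotated start site, in the direction of transcription) at the 10 phosphatase genes in WT, 154Q and 154Q[V591A;S602D], with the region within 1 kb shaded. Summits of different lists lie within 24 bp of each other at Dusp4 (strongest summit) and Dusp5 (proximal site) and within 4 bp at Dusp6, and the single Dusp8 summit, 24340 bp from its start site, is outside the axis.

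Among the inducible nuclear phosphatases, Dusp4, which acts on ERK and JNK, had the highest −log10 q of the group in every list. Its summit lay upstream of the start site, 173 bp for WT, 179 bp for 154Q and 196 bp for 154Q[V591A;S602D], a spread of 23 bp. Its rank was 11 of 4432 (the strongest 0.248%), 8 of 1690 (0.473%) and 13 of 848 (1.53%). Its −log10 q was 118.9, 306.6 and 30.7, values that grow with depth and are not compared between lists. A second summit at 34 bp upstream accompanied it in WT (−log10 q 19.6) and 154Q (24.2) at the same base, and none was listed for 154Q[V591A;S602D]. The WT peak ran from base 34806938 to 34807605 of chromosome 8 and thus crossed the start site at 34807297.

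The pileup at Dusp4 was 289 fragments in WT (95% Poisson interval 257 to 324) over a background of 47.4, and 134 (112 to 159) over 35.9 in 154Q[V591A;S602D]. The fold enrichment was 5.99 in WT (5.33 to 6.72) and 3.65 in 154Q[V591A;S602D] (3.07 to 4.32). These intervals do not overlap. They cover the counting error of the pileup in 1 merged library, take the shared control as fixed and leave out the spread between mice. Ranked by fold enrichment instead of −log10 q, Dusp4 stood at 115 in WT and 195 in 154Q[V591A;S602D]. Both backgrounds were above the genome-wide values.

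Dusp5, an ERK phosphatase of the nucleus, carried the second site found in all lists. Its summit lay 58 bp (WT), 40 bp (154Q) and 64 bp (154Q[V591A;S602D]) upstream of the start site at 53529109 of chromosome 19, a spread of 24 bp. It ranked 301 of 4432 (6.79%), 69 of 1690 (4.08%) and 72 of 848 (8.49%), with a −log10 q of 18.6, 35.7 and 10.7. The site ranked below Dusp4 by −log10 q in each list. By fold enrichment the order was the reverse in 154Q[V591A;S602D], where Dusp5 ranked 117 and Dusp4 195. The pileup was 64 fragments over a background of 13.5 in WT and 48 over 11.5 in 154Q[V591A;S602D]. The fold enrichments of 4.50 (3.48 to 5.72) and 3.91 (2.90 to 5.16) had intervals that overlapped widely.

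Weaker Dusp5 peaks stood alone in their lists, at 560 bp upstream in WT (rank 2120, fold enrichment 3.32) and at 848 bp upstream in 154Q[V591A;S602D] (rank 595, fold enrichment 3.17). The annotated exon of an antisense transcript, AC137853.2, covers the proximal summits. Outside the 20 kb limit, 28368 bp upstream, WT had a Dusp5 peak of rank 321 with a fold enrichment of 4.29, and 154Q had 3 peaks between 28370 and 29492 bp, of ranks 446, 481 and 1085. No 154Q[V591A;S602D] summit lay there. Inside the limit the farthest summit from a gene was that at Dusp8, at 8558 bp.

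Dusp1, the immediate early phosphatase of JNK, p38 and ERK, had weak peaks at different places. In WT a summit at −98 bp from an annotated start site, within an intron of a longer transcript, had a −log10 q of 1.63 and rank 3833, with 34 fragments over a background of 15.2. A second WT summit, 1041 bp downstream in an intron, had a −log10 q of 1.78 and rank 3766. The 154Q summit was 2078 bp downstream in a coding exon, with a −log10 q of 1.44 and rank 1457 of 1690. None of the 3 overlapped, and each stood near the foot of its list. Dusp2, an inducible nuclear phosphatase best known from lymphocytes, had no peak, and the nearest summit was 221253 bp away for WT, 1479527 bp for 154Q and 182763 bp for 154Q[V591A;S602D].

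**Figure D2:**
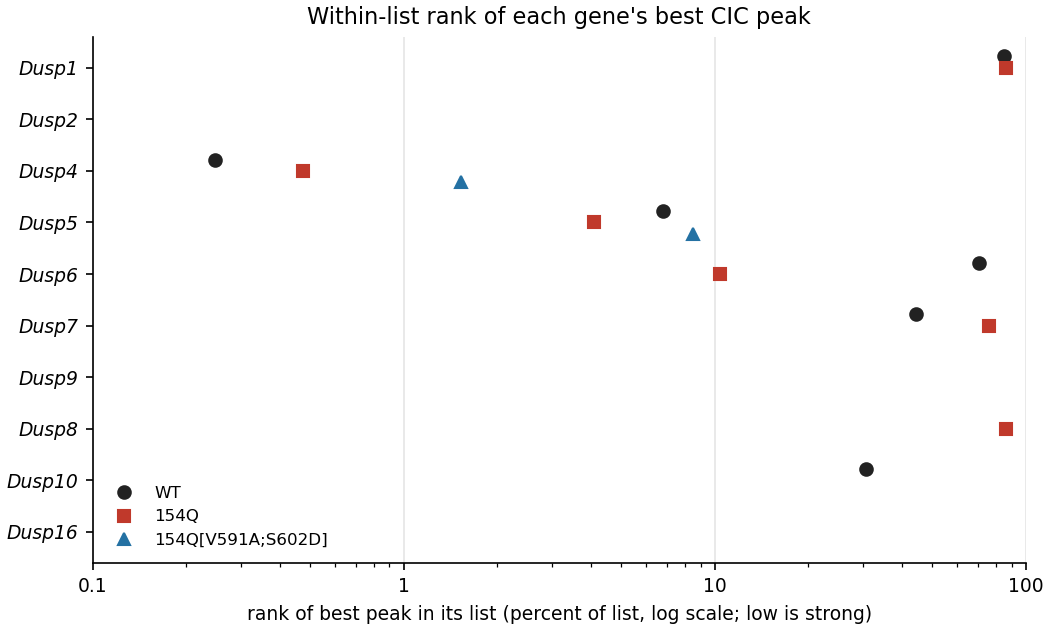
Rank of the strongest CIC peak at each phosphatase gene as a percent of its list (x axis, log scale, low is strong) in WT, 154Q and 154Q[V591A;S602D]; a missing symbol means that the list has no peak at that gene. Dusp4 lies below 2% and Dusp5 below 10% in all lists, while Dusp6 lies at 10.4% in 154Q and 70.9% in WT.

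Among the cytoplasmic ERK phosphatases, Dusp6, the ERK feedback phosphatase that is a standard readout of FGF signalling, had a WT summit 111 bp upstream of its start site (chromosome 10, 99263231) and a 154Q summit 107 bp upstream, 4 bp apart. It ranked 3141 of 4432 in WT (70.9%) and 176 of 1690 in 154Q (10.4%), with a −log10 q of 2.285 and 15.71. This was the widest gap in percent of list between WT and 154Q among the 5 phosphatase genes with a peak in both. A percent of list depends on how many weak peaks the list holds, and the gap was not tested. The WT pileup was 47 fragments (35 to 63) over a background of 22.2, a fold enrichment of 2.07 (1.53 to 2.73). No 154Q[V591A;S602D] summit lay within 1220005 bp. A site of WT strength would be expected to hold 37.7 fragments in that list (28 to 50), and a call would need about 39.

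Dusp7, which acts on ERK in the cytoplasm, had summits 434 bp upstream in WT and 207 bp upstream in 154Q that did not overlap. They ranked 1965 of 4432 (44.3%) and 1285 of 1690 (76.0%), with a −log10 q of 4.47 and 1.86. The WT peak held 41 fragments over a background of 14.7, a fold enrichment of 2.67 (1.94 to 3.60), and the 154Q summit base is repeat-masked in the reference. Dusp9, the X-linked member of this subgroup, had no peak, with the nearest WT summit 72718 bp away.

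Among the phosphatases of JNK and p38, Dusp10 had a WT peak 78 bp upstream of its start site at base 184034381 of chromosome 1. It ranked 1354 of 4432 by −log10 q (6.56) but 4285 by fold enrichment, which was 1.92 (1.595 to 2.297) from 119 fragments over a background of 61.4, the highest background among the WT peaks at these genes. A start site of the neighbouring gene 1700056E22Rik lies 305 bp from this summit. At Dusp8, a phosphatase of JNK and p38 abundant in brain, the single 154Q summit lay in intergenic sequence 8558 bp beyond the 3′ end of the gene and 9867 bp from the start site of its neighbour Mob2. Its −log10 q of 1.44 and rank of 1457 tied with Dusp1. Dusp16, the third of this subgroup, had no peak, and the nearest WT summit was 95394 bp away.

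By subgroup, the inducible nuclear genes held 5 WT, 3 154Q and 3 154Q[V591A;S602D] peaks at 3, 3 and 2 of 4 genes. The cytoplasmic genes held 2, 2 and 0 peaks at 2, 2 and 0 of 3 genes, and the JNK and p38 genes 1, 1 and 0 at 1, 1 and 0 of 3 genes. With 3 or 4 genes in a subgroup, and 25.3%, 11.9% and 6.92% of all genes with a peak, no difference between subgroups is read from these counts. All 3 peaks of the 154Q[V591A;S602D] list were at the inducible nuclear genes Dusp4 and Dusp5.

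Of the 8 WT peaks, 6 had no overlapping 154Q[V591A;S602D] peak, with WT fold enrichments from 1.92 (Dusp10) to 3.32 (Dusp5 at 560 bp upstream), while those at Dusp4 and the proximal Dusp5 site, the highest in WT at 5.99 and 4.50, had one. The 154Q[V591A;S602D] list came from 3 mice against 4 and had the lower genome-wide background. It also held 848 peaks against 4432, so most WT peaks, at any gene, can have no overlapping peak in it. The share of all WT peaks without one was not counted. Divided by the background ratio of 1.25, the WT pileup at Dusp6 gives 37.7 fragments, where a 154Q[V591A;S602D] call would need about 39. At the Dusp1 sites the values were 18.4 against 21 and 27.2 against 30. They were above the need at Dusp5 560 bp upstream (20.8 against 19), Dusp7 (32.8 against 29) and Dusp10 (95.3 against 83). Whether CIC binding at the 6 sites differed from WT was not tested.

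**Figure D3:**
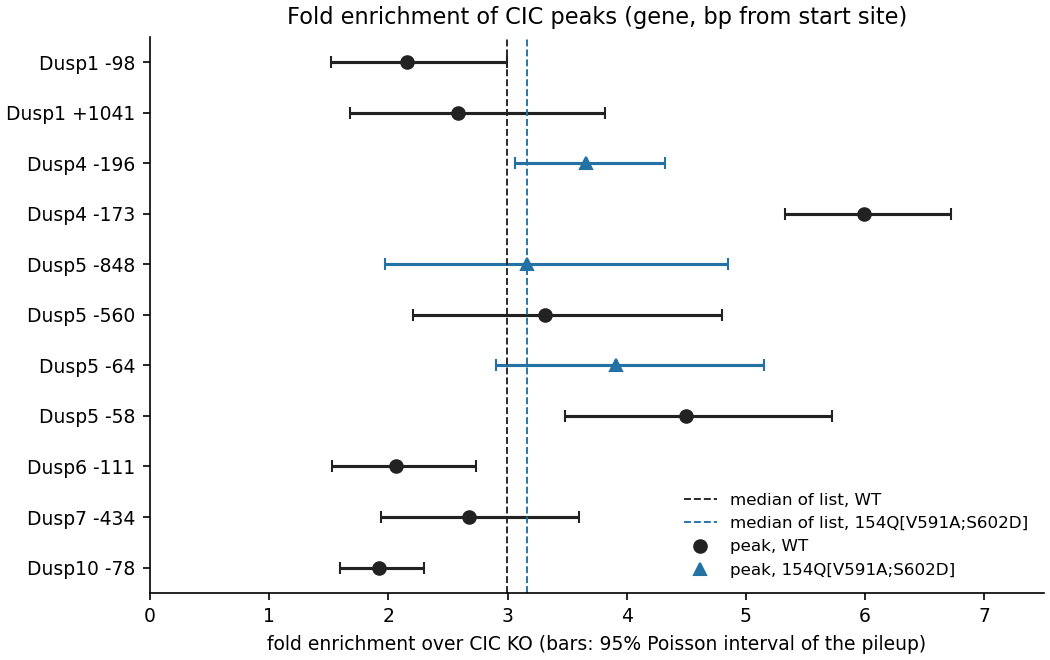
Fold enrichment over CIC KO (x axis, linear) of each phosphatase peak in WT and 154Q[V591A;S602D], labelled by gene and by the distance of its summit from the start site in bp, with 95% Poisson intervals of the pileup as bars and the median of each list as a dashed line. Dusp4 has 5.99 in WT and 3.65 in 154Q[V591A;S602D] with intervals that do not overlap, the intervals of the proximal Dusp5 site overlap, and Dusp6 and Dusp10 lie below the WT median of 2.99.

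Only the WT peak of Dusp7 had an octamer, TGAATGAA, within 50 bp of its summit, the window in which the octamer was counted. That was 1 of 8 peaks in the WT list, 0 of 6 from 154Q and 0 of 3 from 154Q[V591A;S602D], against 2.39%, 6.57% and 3.54% of all peaks in these lists. Within 250 bp the counts were 4 of 8, 3 of 6 and 1 of 3, against 8.26%, 14.2% and 9.32%. The octamers at Dusp4 and Dusp6 stood as pairs. At Dusp4 both were TGAATGGA, 172 bp apart, one on either side of the strongest summit of each list. Their first bases were at −98 and 74 bp from the strongest WT summit. The second summit of WT and 154Q, 34 bp upstream of the start site, lay downstream of both octamers. At Dusp6 both were TCAATGGA, 25 bp apart, 24 bp before the start site and 1 bp after it, and the WT and 154Q summits lay 87 and 83 bp before the first of them. A pair or more within 250 bp occurred in 1.24% of the WT list, 2.66% of that of 154Q and 1.65% of that of 154Q[V591A;S602D].

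**Figure D4:**
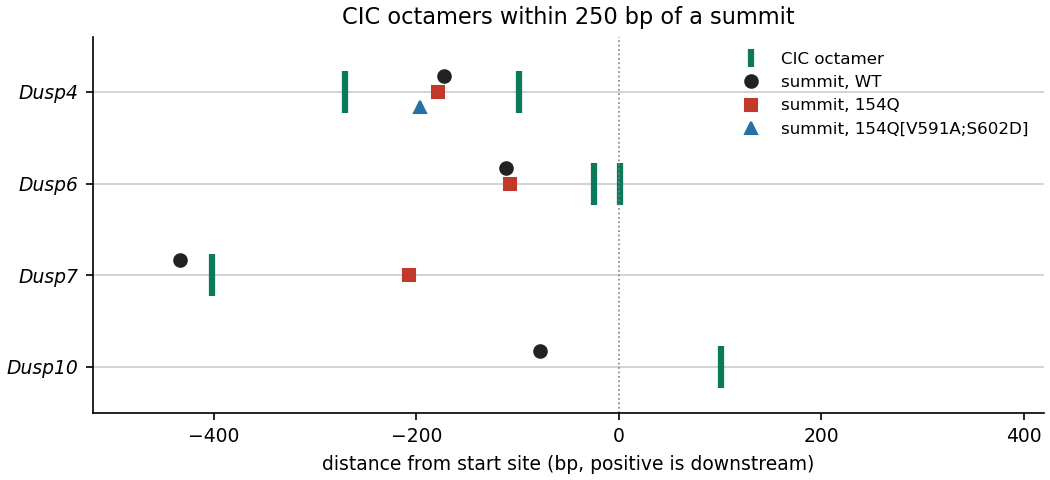
First base of each CIC octamer within 250 bp of a summit (green bars) and the strongest summit of each WT, 154Q and 154Q[V591A;S602D] peak (symbols) at the phosphatase genes that have one, as distance from the start site in bp. The octamers at Dusp4 lie on either side of these strongest summits, those at Dusp6 lie downstream of both summits, and the Dusp7 octamer is 32 bp from the WT summit.

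The windows of the 10 genes, gene body and 20 kb at either end, held 142 octamers, or 2.16 per 10 kb, against 2.55 per 10 kb over the assembled chromosomes. Of the 142, 6 (4.23%) lay within 250 bp of a summit, at Dusp4, Dusp6, Dusp7 and Dusp10. Over the assembled chromosomes, which include sequence far from genes, 622 of 673854 octamers did (0.0923%). Per 10 kb the windows ranged from 0.474 at Dusp2 to 3.004 at Dusp1. Dusp16, with no peak, held 2.82 per 10 kb and Dusp4 1.52. Of the 8 phosphatase genes with a RefSeq promoter of 300 bases (build GRCm38.p6), Dusp6 held 2 octamers, Dusp16 held 1 and the other 6 none, while 3.84% of 32851 promoters held at least 1 and 0.183% held at least 2. Dusp4 and Dusp9 were not among the promoters matched.

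Further motifs were looked up after the peaks had been seen. The first 6 bases of the octamer, TGAATG or TCAATG, lay within 50 bp of the summit in 5 of 8 peaks of WT, 3 of 6 from 154Q and 1 of 3 from 154Q[V591A;S602D], against 8.30%, 15.3% and 8.84% of all peaks. They occurred at Dusp4 as TGAATGGG between the paired octamers, with its first base at −17, −11 and 6 bp from the WT, 154Q and 154Q[V591A;S602D] summits. At Dusp6 they occurred as TGAATGAC, at −22 and −26 bp from the WT and 154Q summits. The rest were at the weak WT promoter peak of Dusp1 (TGAATGGC) and at Dusp5. There they were TGAATGGG at the WT peak 560 bp upstream and TGAATGAG at the 154Q peak. At the WT peak of Dusp7 they were part of the octamer already counted. The paired CArG boxes began at −46 and −36 bp from the Dusp5 start site, inside the 50 bp window of the proximal peak in all 3 lists, and a CArG box lay in 0.654%, 1.01% and 0.943% of all peaks and in 1.63% of promoters. GGGCGG lay in 3 WT, 1 154Q and 2 154Q[V591A;S602D] phosphatase peaks, against 24.1%, 26.0% and 31.8% of all peaks. TGACGTCA lay in 1, the WT Dusp1 peak, against 0.790% of WT peaks. Such matches describe the letters in these windows and were not tested as binding sites.

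Related genes were counted in the same way. A peak was present at 5, 2 and 0 of 14 atypical dual specificity phosphatases in WT, 154Q and 154Q[V591A;S602D]. It was present at 5, 4 and 3 of 9 other phosphatase or phosphatase-like genes linked to MAP kinases, with the phosphatase-like Styxl1 in each count. It was present at 6, 2 and 0 of 14 MAP kinases, at 2, 2 and 0 of 7 MAP kinase kinases and at 4, 4 and 3 of 6 Sprouty and Spred genes, whose products restrain signalling upstream of ERK. The shares over all genes were 25.3%, 11.9% and 6.92%, so that, for example, the 2 of 14 atypical phosphatases in 154Q (14.3%) are near the background. These counts are descriptions and were not tested against each other. The median rank of the best peak, as percent of the list, was 37.4% over the 6 WT phosphatase genes, 43.2% over the 6 154Q genes and 5.01% over the 2 154Q[V591A;S602D] genes, against 36.2%, 42.3% and 47.6% over all genes with a peak. The spread among the phosphatase genes ran from 0.248% to 85.0% in WT and from 0.473% to 86.2% in 154Q.

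**Figure D5:**
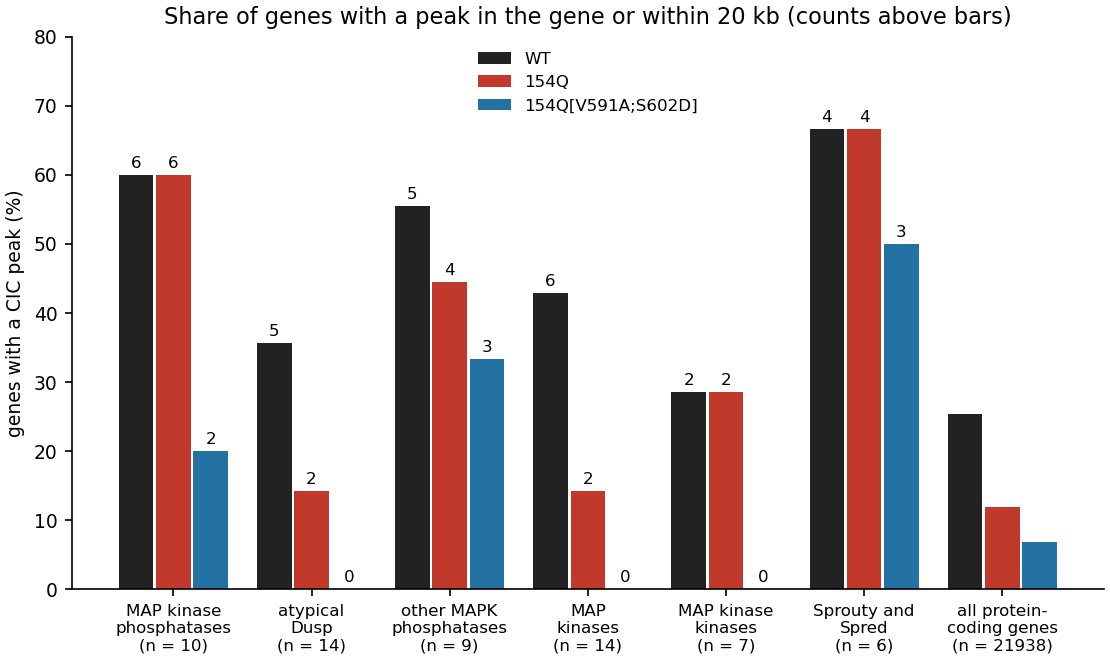
Share of genes with a CIC peak in the gene body or within 20 kb (y axis, percent, bars from 0) in WT, 154Q and 154Q[V591A;S602D] for the MAP kinase phosphatases, 5 related gene lists and all protein-coding genes, with the number of genes with a peak above the bars of each list. The phosphatase genes stand at 6, 6 and 2 of 10, and the share over all genes falls from 25.3% in WT to 6.92% in 154Q[V591A;S602D].

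Likeness was taken as the distance between log2 ranks over the 3 lists, among the 1011 genes with a peak in all of them. Tnks was at distance 0 from Dusp4 because the same peaks lie within 20 kb of its gene body. Next were Dhh and Kmt2d, each at ranks 14, 13 and 12 in WT, 154Q and 154Q[V591A;S602D]. Ranks equal in every list are those of genes assigned the same peaks, so these genes are not read as separate likenesses. Nearest to Dusp5, at ranks 301, 69 and 72, were Ppp2r3d (375, 109 and 59), Lrp8 (178, 105 and 75) and Arhgap26 (262, 139 and 78).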

How the data were processed

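CUT&RUN was performed on cerebellar nuclei of 15 mice, divided over 3 antibodies (45 samples, 30 of them not CIC and not analysed here). Per the labels and methods, reads were trimmed (Trimmomatic 0.36), aligned with Bowtie2 2.3.4.1 to mm10 (GRCm38) and E. coli ASM584v2, and CIC fragments under 120 bp were kept (SAMtools 1.10, bedtools 2.29.1). The authors merged the replicates of a genotype and called peaks with MACS3 at q 0.05 against merged CIC KO. The deposited WT and 154Q[V591A;S602D] values are the fold enrichment ratio, −log10 p-value and −log10 q-value per summit. The deposited 154Q list holds 1 bp summits and −log10 q. Merging weights each mouse by its fragments.

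Summit lines were collapsed to peaks with the highest −log10 q. WT and 154Q[V591A;S602D] peaks with over 50% soft-masked bases were removed (156 and 70), as the 154Q list had already been filtered, and 0 of them were at the phosphatase genes. A tie took the best shared rank. Genes were from GENCODE M21 basic, and coordinates are 1-based. The pileup was solved as the whole number whose Poisson tail and fold enrichment matched those deposited (within 0.005 in −log10 p), for 99.9% of WT and 100% of 154Q[V591A;S602D] peaks. Intervals (95%, exact Poisson) cover counting error only. Sequences were read from GRCm38, and promoters from RefSeq (GRCm38.p6). The methods were tested on simulated data. Python 3.11.15, pandas 2.3.3, SciPy 1.17.1, pysam 0.24.0 and matplotlib 3.10.9 were used.

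The genes, gene lists and thresholds were chosen with earlier results of these data known. Every one of the 10 genes was described, and the 3 genes nearest in rank pattern to each gene with a peak in all lists were named. Alternatives were other gene and promoter distances, −log10 q minimums, equal list lengths, no repeat filter, other rules for shared sites, other octamer windows and forms, and other rankings.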

Additional observations from a re-analysis of the deposited data

How the results depend on the processing

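No paired analysis was possible because replicates were merged before peaks were called, and no replicate could be left out for the same reason. Of 66 alternative counts 45 stayed within 1.5 times the reported value. At a −log10 q of at least 3 there were 5 peaks at 4 phosphatase genes in WT and 3 peaks at 3 genes in 154Q, with 18.6% and 7.69% of all genes. At a −log10 q of at least 10, and also at equal list lengths, 2 peaks at 2 genes were left in WT and 3 peaks at 3 genes in 154Q, with 7.03% and 2.33% of all genes at that −log10 q and 7.41% and 6.67% at equal lengths. The 154Q[V591A;S602D] counts stayed within 1.5 times under these settings. With summits within 500 bp joined, 5 of 9 sites were in 1 list instead of 9 of 12, against 73.9% and 77.2% of the sites of all peaks. The sites shared by all 3 lists numbered 2 under each rule tried. Peaks with the octamer numbered 3, 2 and 1 (WT, 154Q, 154Q[V591A;S602D]) within 100 bp of the summit (4.26%, 9.59% and 5.54% of all peaks) and 4, 3 and 1 within 250 bp, and 5, 3 and 1 held its first 6 bases within 50 bp, a search chosen after seeing the data. Of 36 alternative ranks 29 stayed within 1.5 times. Without the repeat filter the rank of Dusp4 was 19 (WT) and 22 (154Q[V591A;S602D]). By fold enrichment Dusp4 ranked 115 and 195, Dusp5 ranked 117 in 154Q[V591A;S602D], and Dusp7 and Dusp10 ranked 3088 and 4285 in WT. Fold enrichment is not given for 154Q, so its depth cannot be compared, and a mouse that differs from its group cannot be seen in merged lists.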

Other observations

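Among the related genes, 2 of the Sprouty and Spred inhibitors had peaks stronger than Dusp4 in every list. Spry4 ranked 4, 2 and 2 in WT, 154Q and 154Q[V591A;S602D], and Spred1 ranked 8, 7 and 7, where Dusp4 ranked 11, 8 and 13. Spred2 ranked 82, 14 and 51, between Dusp4 and Dusp5 in each list. Ptprr, a tyrosine phosphatase of ERK, ranked 3027 in WT and 163 in 154Q and had no 154Q[V591A;S602D] peak, values close to those of Dusp6 (3141 and 176). Map2k7, the kinase upstream of JNK, ranked 120 in WT and 226 in 154Q, and Nlk, an atypical MAP kinase, ranked 280 and 234, and neither had a 154Q[V591A;S602D] peak. These genes were picked after their ranks were seen, and the differences were not tested.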
